A study of Mus musculus with 11 samples.

Results

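The genes described here are 10 genes of the contractile apparatus that smooth muscle cells and myofibroblasts share, taken by symbol from a fixed list, and they are 10 of the 46517 genes in the count table. They are the actins Acta2 and Actg2, the actin-binding genes Tagln, Cnn1, Lmod1, Tpm2 and Smtn, the myosin genes Myl9 and Mylk, and the transcriptional coactivator Myocd. RNA of mouse ventricular myocardium was sequenced in bulk in 11 libraries. The 3 KO TAC and 3 KO sham libraries are labelled as mice with floxed Lmnb2, the lamin B2 gene, and a Cre recombinase driven by the Tnnt2 promoter. The 3 WT TAC and 2 WT sham libraries are labelled as controls that carry the same Cre, and WT sham 2 is labelled WT where the others are labelled Lmnb2 WT. TAC is transverse aortic constriction, a suture around the aortic arch that raises the pressure load on the left ventricle, done at 10 to 12 weeks of age, and the other mice had sham surgery. The Tnnt2 promoter is active in cardiomyocytes, so that the cells in which these contractile genes are best known are not the cells in which Lmnb2 was targeted. The series concerns nuclear pores and nuclear import in cardiomyocytes under stress, and the contractile genes are set here against surgery, genotype and their interaction.

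Smooth muscle cells contract when calcium and calmodulin activate myosin light chain kinase, which phosphorylates the regulatory light chain and lets myosin pull on actin filaments carried by tropomyosin. In the heart these genes mark the walls of coronary vessels, and fibroblasts that turn into myofibroblasts after injury or under pressure take up several of them, smooth muscle actin foremost. Many of them are driven by serum response factor, which binds a DNA element called the CArG box, together with the coactivators myocardin or MRTF, and some by TEAD factors, which bind the MCAT element.

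The sequences below are shown because the 4 muscle actins are close relatives and because the promoters of Acta2 and Myl9 hold the DNA elements of this program. The first 60 coding bases (GENCODE M21, GRCm38) follow for Acta2, for Actg2, the actin of visceral smooth muscle, and for the striated muscle actins Acta1 and Actc1. Capitals mark bases that differ from Acta2 in the alignment. Actg2 has 1131 coding bases against 1134 in the others, and was aligned with a gap that is not shown. Its marks after the gap therefore do not follow the printed columns. Over the whole coding sequence Actg2 was 84.2% identical to Acta2, Acta1 85.4% and Actc1 82.5%.
Acta2: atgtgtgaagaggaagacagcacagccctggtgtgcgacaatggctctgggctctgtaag
Actg2: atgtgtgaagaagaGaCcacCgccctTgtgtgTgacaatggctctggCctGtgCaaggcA
Acta1: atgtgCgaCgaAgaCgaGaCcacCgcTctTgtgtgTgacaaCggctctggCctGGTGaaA
Actc1: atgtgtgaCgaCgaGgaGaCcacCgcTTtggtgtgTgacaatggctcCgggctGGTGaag

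Promoter sequence (RefSeq, GRCm38.p6, 250 bases before the gene start) was found for 7 of the 10 genes, and Actg2, Tagln and Myocd are only named. A full CArG box on either strand was found in 1.47% of 32851 mouse promoters, a form with 5 or 6 of its 6 central bases A or T in 8.59%, and the MCAT letters CATTCC on either strand in 12.6%. Windows of 30 bases around the matches follow, with the element in capitals. For Acta2 they lie on the minus strand at chr19:34255438-34255467, chr19:34255388-34255417 and chr19:34255502-34255531, with the element starting 84, 34 and 146 bases before the RefSeq start. The GENCODE model of Acta2 starts further upstream, and its first exon covers 217 of these 250 bases, all 3 windows included. For Myl9 they lie on the plus strand at chr2:156775293-156775322 and chr2:156775355-156775384, starting 161 and 99 bases before the RefSeq start and outside GENCODE exons.
Acta2 CArG-like: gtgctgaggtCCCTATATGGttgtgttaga
Acta2 CArG-like, nearer: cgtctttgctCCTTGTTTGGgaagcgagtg
Acta2 MCAT: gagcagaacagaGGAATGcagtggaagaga
Myl9 CArG box: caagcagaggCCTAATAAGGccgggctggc
Myl9 CArG-like: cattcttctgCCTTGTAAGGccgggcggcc
Mylk, Lmod1 and Smtn each held 1 MCAT match, and Cnn1 and Tpm2 held neither element in this window. These matches describe letters only, and no binding was measured.

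Library totals ran from 14770383 to 17333227 counts, and all 10 genes passed the filter on low counts. Messenger RNAs of ribosomal proteins took 0.87% of counts in KO TAC 1 and 3.21% and 3.17% in KO TAC 2 and 3, and 6.73%, 4.00% and 1.32% in WT TAC 1 to 3, against 0.651% to 1.72% in the sham libraries. Mitochondrial transcripts took 35.9% in KO TAC 1 and 30.5% in WT TAC 3, 13.2% to 25.9% in the other TAC libraries, and 32.8% to 49.4% in the sham libraries. KO TAC 1 and WT TAC 3 therefore stood nearer to sham in both shares, and the changes after TAC are given with and without them. The pair was chosen with results known, and holds the lowest TAC values of Cnn1, Tagln and Myl9 and the highest of Smtn, Mylk and Lmod1. WT TAC 3 also holds the highest TAC value of Myocd. Larger changes of these genes without the pair follow from that choice and are no separate support. Without it edgeR called 37.8% of all tested genes over both genotypes, against 19.5% with it. In KO it called 14.7% against 4.70%, and in WT 30.5% against 6.92%. Lmnb2 measured 9.72, 3.24 and 4.46 CPM in KO TAC 1 to 3 and 2.86, 2.16 and 6.70 CPM in the WT TAC libraries, and 0.649, 1.81 and 2.43 CPM in KO sham against 4.44 and 3.86 CPM in WT sham. CPM are counts relative to the library size after TMM scaling. Lmnb2 was thus lower in KO after sham but not after TAC, and every KO value below is that of a library labelled KO. The p-values measure the spread between these libraries. All titles of TAC libraries carry lower numbers than those of sham libraries, so that a batch following the numbers and surgery cannot be told apart. Titles of sham libraries also begin with TAC, and the groups here follow the treatment label. Titles end in F for KO sham 2, WT TAC 1 and KO TAC 3, and in M for the others, both WT sham libraries included.

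Over both genotypes, TAC raised 4 of the 10 contractile genes. Cnn1, the gene of calponin 1, rose by 4.07 ± 0.56 on the log2 scale (standard error), and Myl9, the regulatory light chain, by 2.41 ± 0.64. Tagln, the actin-binding transgelin also called SM22 alpha, rose by 2.18 ± 0.51, and Tpm2, beta-tropomyosin, by 1.23 ± 0.24 (6 TAC and 5 sham libraries). The other 6, with Acta2, Mylk, Lmod1, Myocd, Smtn and Actg2, did not pass. The edgeR adjusted p-values were 0.000409 for Cnn1, 0.0183 for Myl9, 0.00958 for Tagln and 0.00315 for Tpm2. Among all 14619 tested genes 10.6% were called higher and 8.96% lower in this comparison at an adjusted p under 0.05, against 4 higher and 0 lower of the 10. The median change of the 10 was 0.76, against 0.05 over all tested genes.

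**Figure D1:**
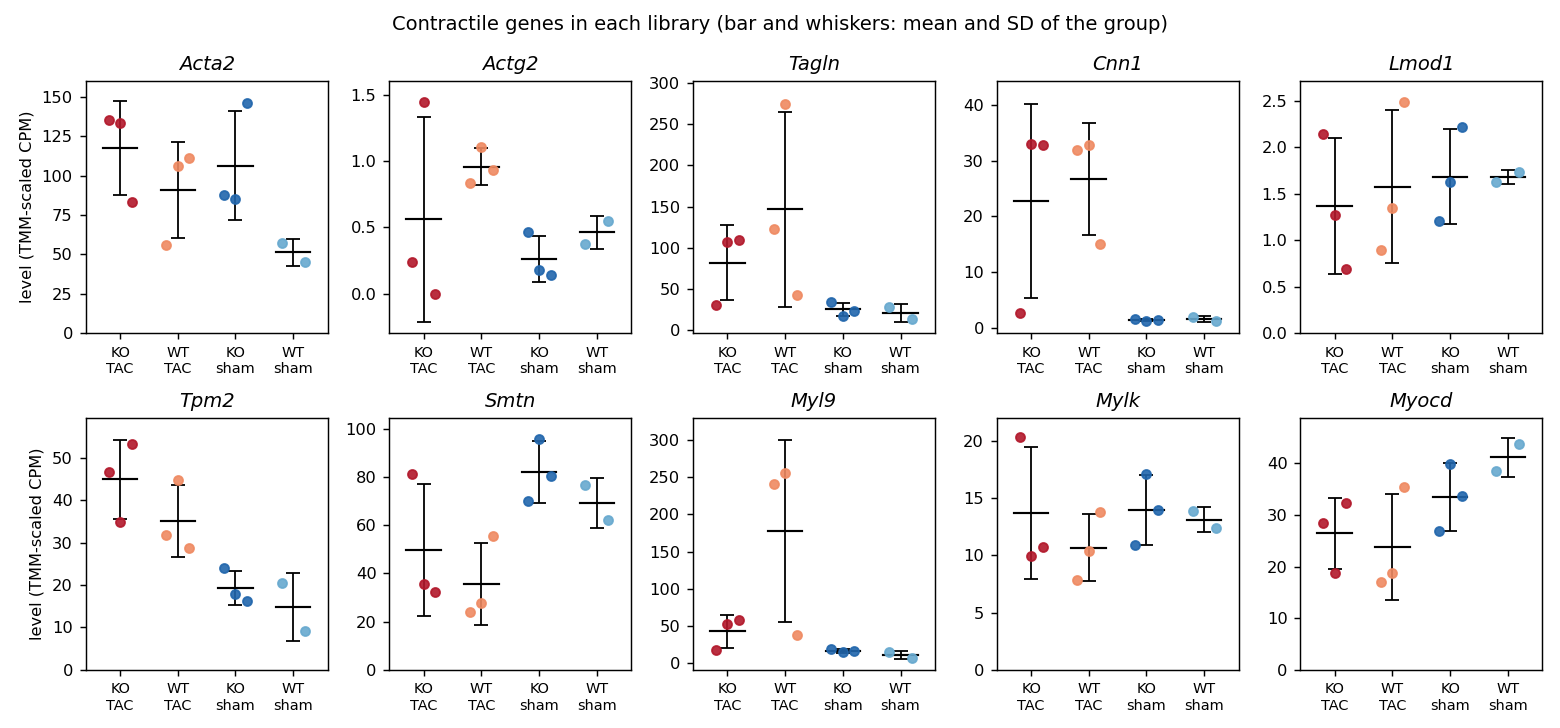
Levels of the 10 contractile genes (vertical axes, TMM-scaled CPM) in the KO TAC, WT TAC, KO sham and WT sham libraries (points), with the mean and SD of each group as bar and whiskers. Cnn1 and Tpm2 were higher in each TAC library than in each sham library, while Tagln and Myl9 had 1 low TAC library in each genotype.

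Acta2 (ENSMUSG00000035783; GRCm38 chromosome 19, 34241090 to 34255590, minus strand), the alpha-actin of vascular smooth muscle and the usual marker of myofibroblasts, measured 135.6, 133.7 and 83.3 CPM in KO TAC 1 to 3 and 55.8, 105.8 and 111.0 CPM in WT TAC 1 to 3. It measured 87.6, 85.1 and 146.3 CPM in KO sham and 57.3 and 45.1 CPM in WT sham. TAC and sham libraries overlapped in both genotypes, and KO sham 3 was the highest of all 11. The log2 change with TAC was 0.14 ± 0.33 in KO (edgeR adjusted p = 0.879), 0.83 ± 0.38 in WT (adjusted p = 0.196) and 0.44 ± 0.26 over both (adjusted p = 0.259). Scaled by library totals, the change over both was 0.84 and passed (adjusted p = 0.0402), while that scaling also moved the median of all tested genes to 0.45. The change over both was 0.30 (adjusted p = 0.391) without KO TAC 1 and WT TAC 3. Acta2 made up 0.409% to 1.27% of the summed level per kilobase of the 4 muscle actins in any library, and Actc1, the cardiac actin, 87.2% to 98.8%. Of the 50-base windows of the Acta2 transcript 0.352% also occur in another gene, and none of these is Actc1.

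Actg2 (ENSMUSG00000059430; chromosome 6, 83512905 to 83536265, minus strand), the gamma-actin of gut and bladder muscle, was near the limit of detection. It had 5, 25 and 0 counts in KO TAC 1 to 3 and 14, 19 and 18 counts in WT TAC 1 to 3, against 5, 3 and 2 counts in KO sham and 6 and 7 counts in WT sham. Each WT TAC library held more than each WT sham library, and the KO groups overlapped. The log2 change was 1.12 ± 1.11 in KO (edgeR adjusted p = 0.667) and 1.05 ± 1.19 in WT (adjusted p = 0.61). The sign in KO rested on the 25 counts of KO TAC 2, being -0.93 without that library and -0.19 with limma-voom, and without KO TAC 1 and WT TAC 3 the change was 1.47 in KO and 1.06 in WT. At this depth 3 counts, the limit that a count of 0 allows, correspond to 0.172 CPM in KO TAC 3, for counting error alone.

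Tagln (ENSMUSG00000032085; chromosome 9, 45929619 to 45936058, minus strand) measured 30.2, 107.2 and 109.2 CPM in KO TAC 1 to 3 and 122.6, 274.8 and 42.4 CPM in WT TAC 1 to 3. It measured 34.1, 17.8 and 23.9 CPM in KO sham and 28.8 and 13.1 CPM in WT sham. All WT TAC libraries lay above WT sham, whereas KO TAC 1 lay within the KO sham range and the other KO TAC libraries above it. TAC against sham gave a log2 change of 1.70 ± 0.63 in KO, which did not pass (edgeR adjusted p = 0.156), and 2.80 ± 0.77 in WT (adjusted p = 0.0487). Without KO TAC 1 and WT TAC 3 the changes were 2.07 (adjusted p = 0.00268) in KO and 3.24 (adjusted p = 0.000258) in WT. The WT call was lost in 15 of 22 other settings. Tagln shares 67.9% of its exon bases with genes of the other strand, chiefly Gm48529, and whether counting used strand is not stated in the sources at hand, so reads of the partners cannot be told apart.

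Cnn1 (ENSMUSG00000001349; chromosome 9, 22099216 to 22109630, plus strand), whose protein binds actin and holds back myosin's ATPase, had the largest fitted change of the 10 in KO and stood close to Myl9 in WT. It measured 2.62, 32.9 and 32.8 CPM in KO TAC 1 to 3 and 32.0, 32.9 and 15.1 CPM in WT TAC 1 to 3. It measured 1.57, 1.15 and 1.32 CPM in KO sham and 2.00 and 1.18 CPM in WT sham. Each TAC library lay above each sham library, with KO TAC 1 close to sham and the other 5 far from it. The log2 change was 4.08 ± 0.76 in KO (edgeR adjusted p = 0.0107) and 4.05 ± 0.89 in WT (adjusted p = 0.022), a fold of 16.9 and 16.5. Without KO TAC 1 and WT TAC 3 it was 4.59 in KO and 4.33 in WT, where Myl9 was then at 4.42. Of the 10 genes 1 was called in KO, Cnn1, where 3.32% of all tested genes were called higher and 1.37% lower, and 3 in WT, Cnn1, Myl9 and Tagln, where 3.88% were called higher and 3.04% lower. In level per kilobase Cnn1 stood at the 77.7th percentile of 13293 tested protein-coding genes in KO TAC and the 79.1st in WT TAC, against the 20.7th in KO sham and the 23.1st in WT sham.

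Lmod1 (ENSMUSG00000048096; chromosome 1, 135324807 to 135368065, plus strand), the smooth muscle leiomodin that starts new actin filaments, was low everywhere. It measured 2.15, 1.27 and 0.686 CPM in KO TAC and 0.894, 1.34 and 2.49 CPM in WT TAC 1 to 3, against 1.21, 1.63 and 2.22 CPM in KO sham and 1.63 and 1.73 CPM in WT sham. The groups overlapped, and the change over both genotypes was -0.20 ± 0.40 (edgeR adjusted p = 0.758) and without KO TAC 1 and WT TAC 3 -0.71 (adjusted p = 0.221). Its sign turned to 0.21 with library totals, 0.20 with the share of ribosomal protein RNA in the fit, 0.41 with the mitochondrial share and 0.12 among libraries with titles that end in M.

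Tpm2 (ENSMUSG00000028464; chromosome 4, 43514711 to 43523765, minus strand) separated TAC from sham with a small change. It measured 46.7, 34.8 and 53.3 CPM in KO TAC and 31.8, 44.8 and 28.8 CPM in WT TAC 1 to 3, against 23.9, 17.9 and 16.2 CPM in KO sham and 20.5 and 9.21 CPM in WT sham. All 6 TAC libraries lay above all 5 sham libraries, and KO TAC 1, low for Cnn1, Tagln and Myl9, was the second highest. In log2 terms the change was 1.22 ± 0.33 in KO (edgeR adjusted p = 0.0525) and 1.24 ± 0.37 in WT (adjusted p = 0.0651), neither past the threshold, and it passed over both. The calls within a genotype depended on the setting, since Tpm2 passed in 10 of 22 other settings in KO and in 5 of 22 in WT. DESeq2 called both (adjusted p = 0.00786 in KO and 0.0112 in WT), and so did edgeR without KO TAC 1 and WT TAC 3, at 1.16 (adjusted p = 0.029) and 1.37 (adjusted p = 0.0135). Over both genotypes the call held in 20 of 21 other settings, with changes between 0.92 and 1.63, and was lost with the mitochondrial share as a covariate (adjusted p = 0.157). Tpm2 is also a gene of slow skeletal muscle, and the 8 skeletal muscle markers are given further on.

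Smtn (ENSMUSG00000020439; chromosome 11, 3517523 to 3540612, minus strand), smoothelin, a protein of fully contractile smooth muscle, lay in the other direction. It measured 81.5, 35.7 and 32.3 CPM in KO TAC and 24.2, 27.6 and 55.4 CPM in WT TAC 1 to 3, against 70.1, 95.9 and 80.6 CPM in KO sham and 76.7 and 62.1 CPM in WT sham. All 3 WT TAC libraries were below WT sham, while KO TAC 1 stood within the KO sham range. The log2 change was -0.72 ± 0.39 in KO (edgeR adjusted p = 0.356), -0.96 ± 0.43 in WT (adjusted p = 0.188) and -0.83 ± 0.28 over both (adjusted p = 0.0553), none past the threshold. The last passed with DESeq2 and limma-voom, and without KO TAC 1 and WT TAC 3 it was -1.36 (adjusted p = 7.578e-05), with -1.31 in KO (adjusted p = 0.00305) and -1.42 in WT (adjusted p = 0.00154). Smtn shares 16.3% of its exon bases with Gm11946 on the other strand.

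Myl9 (ENSMUSG00000067818; chromosome 2, 156775420 to 156781658, plus strand), the light chain that myosin light chain kinase phosphorylates, was highest in a pair of WT TAC libraries. It measured 18.2, 52.3 and 58.9 CPM in KO TAC 1 to 3 and 240.0, 255.2 and 37.6 CPM in WT TAC 1 to 3. It measured 19.7, 14.7 and 16.5 CPM in KO sham and 15.3 and 7.79 CPM in WT sham. WT TAC 1 and 2 exceeded every other library, KO TAC 1 lay within the KO sham range, and WT TAC 3 lay below KO TAC 2 and 3. The fitted log2 change was 1.35 ± 0.60 in KO (edgeR adjusted p = 0.245) and 3.94 ± 0.79 in WT (adjusted p = 0.0155). Without KO TAC 1 and WT TAC 3 it was 1.68 (adjusted p = 0.00124) in KO and 4.42 (adjusted p = 4.905e-06) in WT. With the mitochondrial share in the fit the sign in KO turned, at -0.14.

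Mylk (ENSMUSG00000022836; chromosome 16, 34745210 to 35002420, plus strand), the kinase of Myl9, did not follow it. It measured 20.4, 9.94 and 10.8 CPM in KO TAC and 7.86, 10.4 and 13.8 CPM in WT TAC 1 to 3, against 10.9, 17.1 and 13.96 CPM in KO sham and 13.9 and 12.4 CPM in WT sham. TAC and sham overlapped in both genotypes, and the change over both was -0.15 ± 0.24 (edgeR adjusted p = 0.697). Its sign turned to 0.25 with library totals, 0.18 with the share of ribosomal protein RNA, 0.23 with the mitochondrial share and 0.11 among libraries with M titles, and without KO TAC 1 and WT TAC 3 it was -0.49 (adjusted p = 0.061).

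Myocd (ENSMUSG00000020542; chromosome 11, 65176561 to 65269989, minus strand), myocardin, a coactivator of serum response factor in both heart and smooth muscle, was measured in every library. It measured 28.4, 18.8 and 32.3 CPM in KO TAC and 16.9, 18.7 and 35.5 CPM in WT TAC 1 to 3, against 26.9, 39.9 and 33.8 CPM in KO sham and 38.5 and 43.8 CPM in WT sham. All WT TAC libraries were below WT sham, and the KO groups overlapped. The log2 change was -0.34 ± 0.32 in KO (edgeR adjusted p = 0.646) and -0.80 ± 0.35 in WT (adjusted p = 0.178). Without KO TAC 1 and WT TAC 3 the change in WT was -1.21 and passed (adjusted p = 0.00852), while in KO it was -0.42 (adjusted p = 0.328). WT TAC 3, left out here, had the highest TAC value of Myocd, so that this call follows from the choice and is no separate support.

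**Figure D2:**
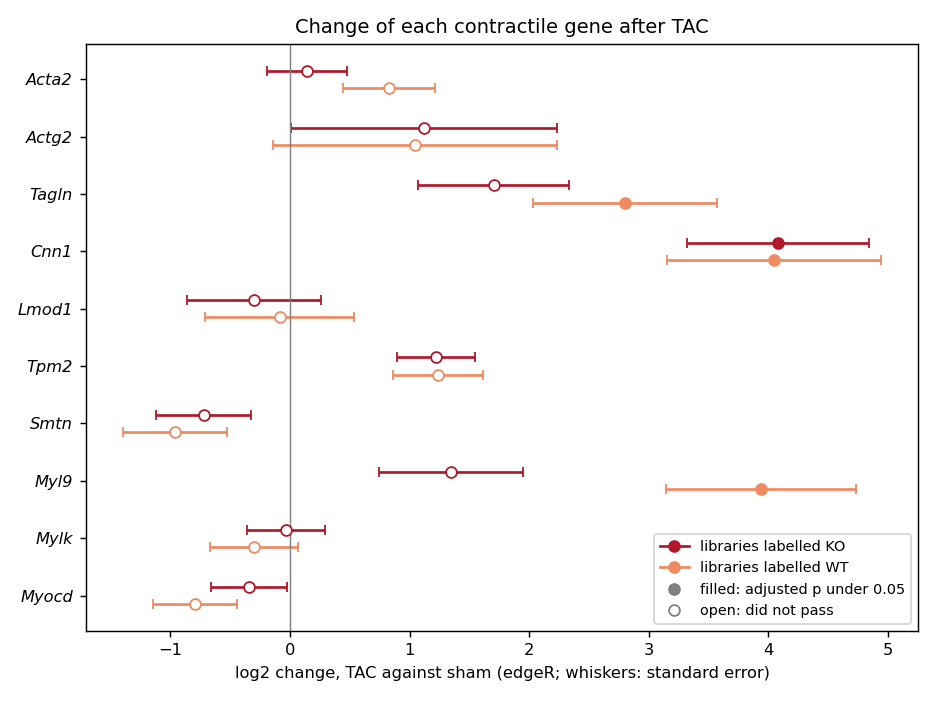
Log2 change after TAC against sham (horizontal axis, edgeR, whiskers are standard errors) of each contractile gene in the libraries labelled KO and in those labelled WT, filled where the adjusted p was under 0.05. Cnn1 stood near 4 in both, and Myl9 was at 1.35 in KO and 3.94 in WT.

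Compared per length, the order of the 10 genes differed between the groups. In KO TAC Acta2 was first at 53.5 ± 13.5 CPM per kilobase of exon (SD, n = 3), before Tagln at 41.4 ± 22.7 and Myl9 at 37.1 ± 18.8, which did not differ beyond their spread. In WT TAC Myl9 was first at 153 ± 105, before Tagln at 73.8 ± 59.4 and Acta2 at 41.4 ± 13.9, with spreads that overlapped. In KO sham Acta2 led at 48.4 ± 15.8, followed by Smtn at 18.8 ± 2.96, and in WT sham likewise at 23.3 ± 3.94 and 15.8 ± 2.35 (n = 2). Actg2 and Lmod1 were the lowest in both TAC groups and both sham groups, at 0.168 to 0.616 CPM per kilobase. Of the summed level per kilobase of all 10 genes, Myl9 took 63.4% and 49.4% in WT TAC 1 and 2 and 11.1% to 27.1% in the other 9 libraries.

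Ratios of counts within a library do not depend on the scaling between libraries. Tagln over Acta2 was 0.223, 0.802 and 1.31 in KO TAC 1 to 3 and 2.2, 2.6 and 0.382 in WT TAC 1 to 3, against 0.389, 0.209 and 0.163 in KO sham and 0.503 and 0.291 in WT sham. Myl9 over Acta2 was 0.134, 0.392 and 0.707 in KO TAC and 4.3, 2.41 and 0.339 in WT TAC, against 0.225, 0.173 and 0.113 in KO sham and 0.267 and 0.173 in WT sham. Both ratios overlapped between TAC and sham, through KO TAC 1 in each and through WT TAC 3 in the first. Myh11, the myosin heavy chain of smooth muscle, changed by -0.19 ± 0.27 over both genotypes (edgeR adjusted p = 0.665). Cnn1 over Myh11 was 0.152, 3.83 and 3.22 in KO TAC and 5.37, 3.94 and 1.05 in WT TAC, against 0.129, 0.0552 and 0.11 in KO sham and 0.205 and 0.121 in WT sham. In this ratio KO TAC 1 lay below WT sham 1 and the other 5 TAC libraries above all sham libraries.

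**Figure D3:**
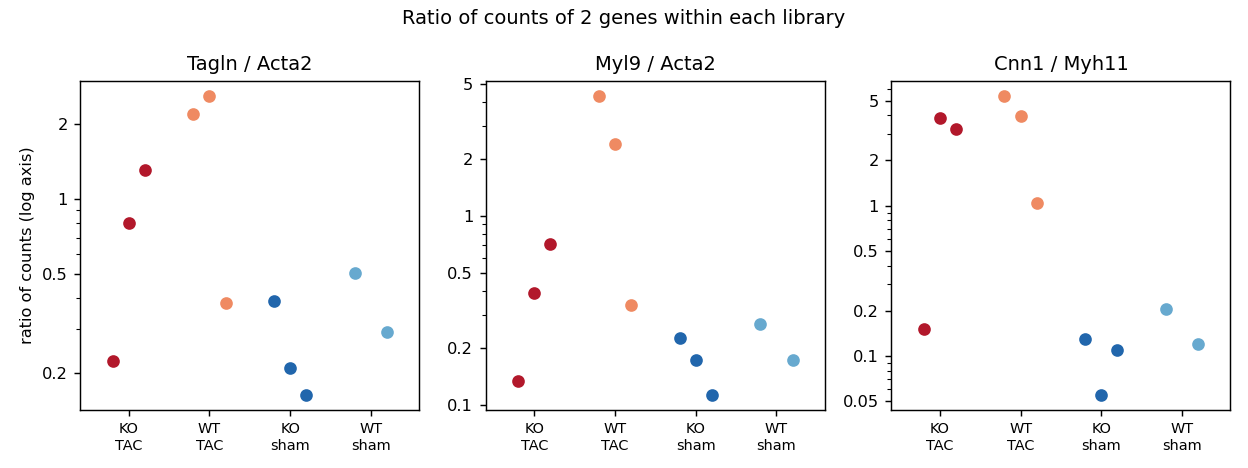
Ratio of the counts of Tagln to Acta2, Myl9 to Acta2 and Cnn1 to Myh11 (vertical axes, log scale) in each library of the KO TAC, WT TAC, KO sham and WT sham groups. KO TAC 1 sits among the sham libraries in each panel.

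Cnn1, Tagln and Myl9 each had their 2 lowest TAC values in KO TAC 1 and WT TAC 3, the TAC libraries with the least ribosomal protein RNA, while Tpm2 was high in the first of these and low in the other. With the share of ribosomal protein RNA added to the fit, the changes over both genotypes were 3.17 for Cnn1 (edgeR adjusted p = 0.00074) and 1.15 for Tpm2 (adjusted p = 0.00539), and Tagln at 1.18 and Myl9 at 1.09 no longer passed (adjusted p = 0.0689 and 0.0583). With the mitochondrial share in its place none of the 4 passed, at 2.40 for Cnn1, 0.92 for Tpm2, 0.67 for Tagln and 0.25 for Myl9. Without KO TAC 1 and WT TAC 3 the changes were 4.47, 1.25, 2.61 and 2.96 in the same order, and Smtn and Myocd also passed, both lower. In that setting 18.7% of all tested genes were called higher and 19.1% lower. Among libraries whose titles end in M the changes were 3.76, 1.19, 2.09 and 2.32, and Cnn1 and Tpm2 passed. The part of RNA composition in these changes was not tested.

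**Figure D4:**
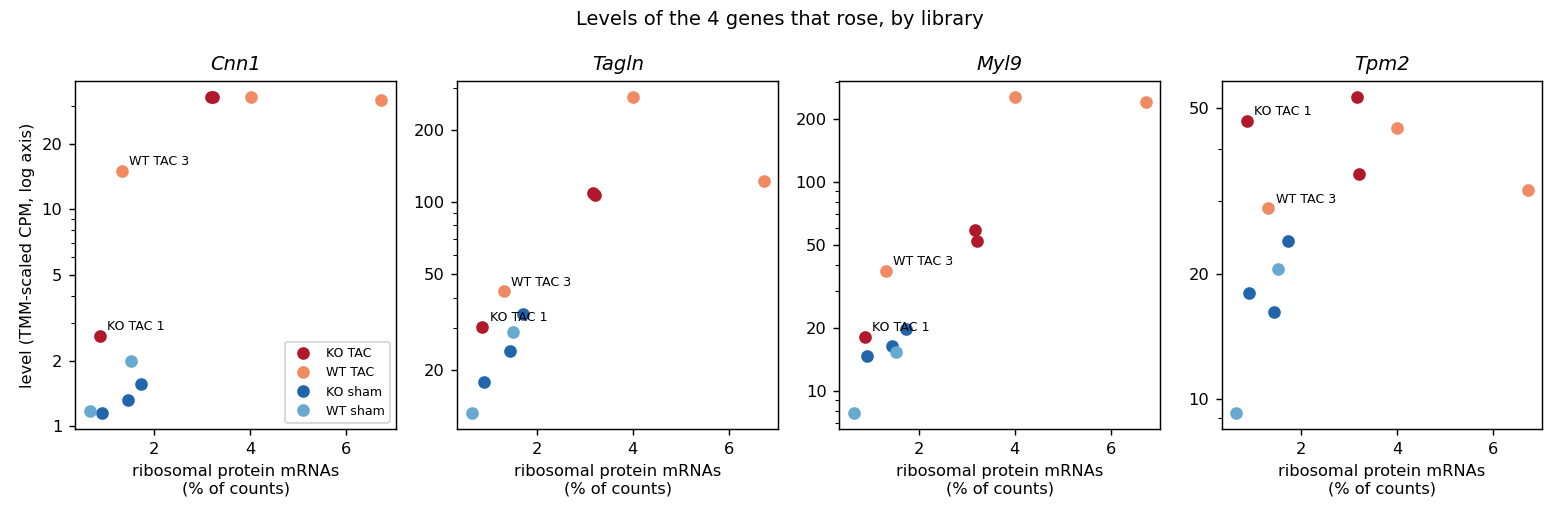
Level of Cnn1, Tagln, Myl9 and Tpm2 (vertical axes, TMM-scaled CPM on a log scale) against the share of counts from ribosomal protein messenger RNAs (horizontal axes, percent) in the 11 libraries, coloured by group. KO TAC 1 at 0.87% and WT TAC 3 at 1.32% lie near the sham libraries for Tagln and Myl9, and KO TAC 1 lies high for Tpm2.

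Over all genes exon length also moved with the changes in WT, and hardly in KO. The 4 genes that rose have 1162 to 2909 exon bases. Of the 6 that did not pass, Actg2 has 1557, Acta2 2196, Lmod1 3948, Smtn 4380, Myocd 6424 and Mylk 11263. Among all tested protein-coding genes of 1000 to 3000 exon bases the median change in WT was 0.31, against -0.05 for those of 3000 to 12000 bases, and in KO 0.04 against 0.03. Acta2 and Actg2 are as short as the genes that rose, and the part of length in the result was not tested.

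No contractile gene passed between the genotypes. After sham edgeR called 0 of 10 between KO and WT, where 0% of all tested genes were called, and DESeq2 and limma-voom also called 0. At an unadjusted p under 0.05 there was 1, against 1.27% of all tested genes. This was Acta2, higher in each KO sham than in each WT sham library, with a log2 difference of 1.05 ± 0.39 (unadjusted p = 0.018, edgeR adjusted p = 1). After TAC edgeR, DESeq2 and limma-voom again called 0 of 10, against 0% of all tested genes by edgeR. At an unadjusted p under 0.05 there was 1, against 6.36% of all tested genes. This was Myl9, at -2.04 ± 0.61 (unadjusted p = 0.00569, adjusted p = 0.747), with KO TAC 2 and 3 above WT TAC 3 and below WT TAC 1 and 2. Without KO TAC 1 and WT TAC 3 the Myl9 difference after TAC was -2.18 and passed (adjusted p = 0.0128), where 14 of 14363 genes were called. It also passed without the filter on low counts (adjusted p = 3.643e-06), where 206 of 24235 genes were called.

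The interaction asks whether the change with TAC differed between KO and WT. It was called for 0 of the 10 genes by edgeR, DESeq2 and limma-voom, and for 0% of all tested genes by edgeR. At an unadjusted p under 0.05 there was 1, against 2.97% of all tested genes, again Myl9 at -2.59 ± 0.92 (unadjusted p = 0.0155, edgeR adjusted p = 0.992), and without KO TAC 1 and WT TAC 3 at -2.74 (adjusted p = 0.0704). The interaction was 0.04 ± 1.03 for Cnn1, -0.02 ± 0.48 for Tpm2, -1.10 ± 0.93 for Tagln and -0.68 ± 0.50 for Acta2. Standard errors of this size leave differences between the genotypes in either direction possible.

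A wider list of contractile and cytoskeletal genes, not restricted to smooth muscle, followed the 4 genes in part. Of 32 further genes, all tested, 15 rose, 1 fell and 16 did not pass over both genotypes, with a median change of 0.69. These are 46.9% higher and 3.12% lower, against 10.6% and 8.96% of all tested genes. In KO 3 rose (9.38%) and 0 fell, against 3.32% of all tested genes called higher and 1.37% lower. In WT 9 rose (28.1%) and 0 fell, against 3.88% and 3.04%. Actn1, an alpha-actinin that cross-links actin, rose by 1.82 (edgeR adjusted p = 0.000142), and Cald1, caldesmon, by 0.94. The calponins Cnn3 and Cnn2, which are less restricted to muscle than Cnn1, rose by 0.98 and 1.17. The 1 that fell was Ppp1r12b, a targeting subunit of myosin phosphatase, at -0.92 (adjusted p = 0.0349). Several of these genes, such as Des and Tpm1, are also expressed by cardiomyocytes, and others are cytoskeletal genes of many cell types. Myh11, the smooth muscle myosin given above, is on this list and did not pass.

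Among 27 tested regulators of smooth muscle genes 4 rose, 2 fell and 21 did not pass, with a median of 0.14 (8 rose and 1 fell with library totals). These are 14.8% higher and 7.41% lower, near the 10.6% and 8.96% of all tested genes. With library totals 24.5% of all tested genes were called higher and 2.63% lower. The growth factor genes Tgfb3 and Tgfb2 rose by 1.81 and 1.95 and the receptor gene Tgfbr1 by 1.29 (edgeR adjusted p = 0.000398, 0.00118 and 0.000825). In both KO and WT these 3 were the ones called. Foxo4, a forkhead factor that binds myocardin, fell by 1.29 (adjusted p = 0.00312). Srf itself changed by -0.15 (adjusted p = 0.637). Klf5 did not pass the filter on low counts.

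Markers of other cells moved beside these genes to different degrees. All 14 markers of activated fibroblasts rose over both genotypes, with a median change of 3.76, among them Fn1 by 4.00, Postn by 6.17, Ltbp2 by 5.78 and Tnc by 5.47. Their summed level was 2289, 3683 and 3228 CPM in KO TAC 1 to 3 and 7353, 4422 and 3378 CPM in WT TAC 1 to 3, against 179.0 to 250.7 CPM in KO sham and 132.5 to 160.8 CPM in WT sham. KO TAC 1 and WT TAC 3, low for Cnn1, Tagln and Myl9, were also the lowest of their groups here, and both lay far above every sham library. Of 10 resident fibroblast markers 1 rose, Col15a1 by 1.96, and 1 fell, Gsn at -1.43. This is 10% each way, near the 10.6% higher and 8.96% lower of all tested genes. With library totals 7 of these markers rose, where 24.5% of all tested genes were called higher. With DESeq2 3 of them rose, where 2049 of 14619 tested genes were called higher, against 1545 with edgeR. Of 12 pericyte and mural cell markers 2 rose, Mcam by 1.25 and Cspg4 by 0.89, and 1 fell, the channel subunit Abcc9 at -1.58. These are 16.7% higher and 8.33% lower, against 10.6% and 8.96% of all tested genes. With library totals, where 24.5% of all tested genes were called higher and 2.63% lower, 5 of these 12 markers rose and 1 fell. Their summed level was 1029 to 1114 CPM in KO TAC and 642.8 to 807.1 CPM in WT TAC 1 to 3, against 1034 to 1307 CPM in KO sham and 921.7 to 1113 CPM in WT sham.

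Of 8 endothelial markers edgeR, DESeq2 and limma-voom called 0, and 0 had an unadjusted p under 0.05, with Egfl7 at 0.50 and Pecam1 at 0.40. With library totals, where 24.5% of all tested genes were called higher, 2 of these markers rose. Their summed level was 1139, 581.0 and 528.9 CPM in KO TAC 1 to 3 and 340.7, 357.5 and 720.8 CPM in WT TAC 1 to 3, against 479.9 to 637.2 CPM in KO sham and 452.8 and 534.7 CPM in WT sham. KO TAC 1 and WT TAC 3, low for Cnn1, Tagln and Myl9, were thus the highest of all libraries in this sum. Of 9 cardiomyocyte markers 4 fell, Tnni3, Pln, Atp2a2 and Ryr2, which is 44.4%, against 8.96% of all tested genes. The summed level of the cardiomyocyte markers was 41950 to 46500 CPM in KO TAC and 37970 to 48200 CPM in WT TAC 1 to 3, against 68710 to 72770 CPM in KO sham and 64700 to 77080 CPM in WT sham. In bulk tissue a change in the number of cells of a type and a change in RNA per cell cannot be told apart. Nor can it be told whether a contractile gene was made by vessel walls, fibroblasts or cardiomyocytes. The parts of cell number, RNA per cell and cell type in the contractile gene changes were not tested.

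Of 8 skeletal muscle markers 4 were tested and 1, the fast troponin T gene Tnnt3, rose by 6.79, a call that limma-voom did not make. The 8 together measured 2.24, 19.1 and 21.4 CPM in KO TAC 1 to 3 and 105.9, 91.3 and 12.1 CPM in WT TAC 1 to 3, against 3.50 to 5.93 CPM in KO sham and 1.65 to 2.63 CPM in WT sham. WT TAC 1 and 2 were the highest in this sum and in Myl9. The defining fast myosins were near 0 in those libraries, with 0 and 1 counts of Myh1 and 0 counts of Myh2 and Myh4 in both, and the part of skeletal muscle in the result was not tested. Of 5 atrial markers 2 were tested and both rose over both genotypes, Dkk3 by 2.83 and Myl4 by 1.99. Of these limma-voom called 1, and edgeR called 0 within KO and 0 within WT. The sum of all 5 was 9.82 to 52.6 CPM in KO TAC and 26.7 to 36.6 CPM in WT TAC 1 to 3, against 4.95 to 5.56 CPM in KO sham and 2.88 to 8.66 CPM in WT sham. Of 4 tested fat cell markers edgeR, DESeq2 and limma-voom called 0, with 0 at an unadjusted p under 0.05 by edgeR, and Plin4 was at -0.57 and Cfd at -0.28. WT TAC 3 stood apart in these genes, with 23.2 CPM of Cfd and 6.91 CPM of Adipoq against at most 2.64 and 1.37 CPM in the other libraries, and the part of fat cells in its values was not tested.

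**Figure D5:**
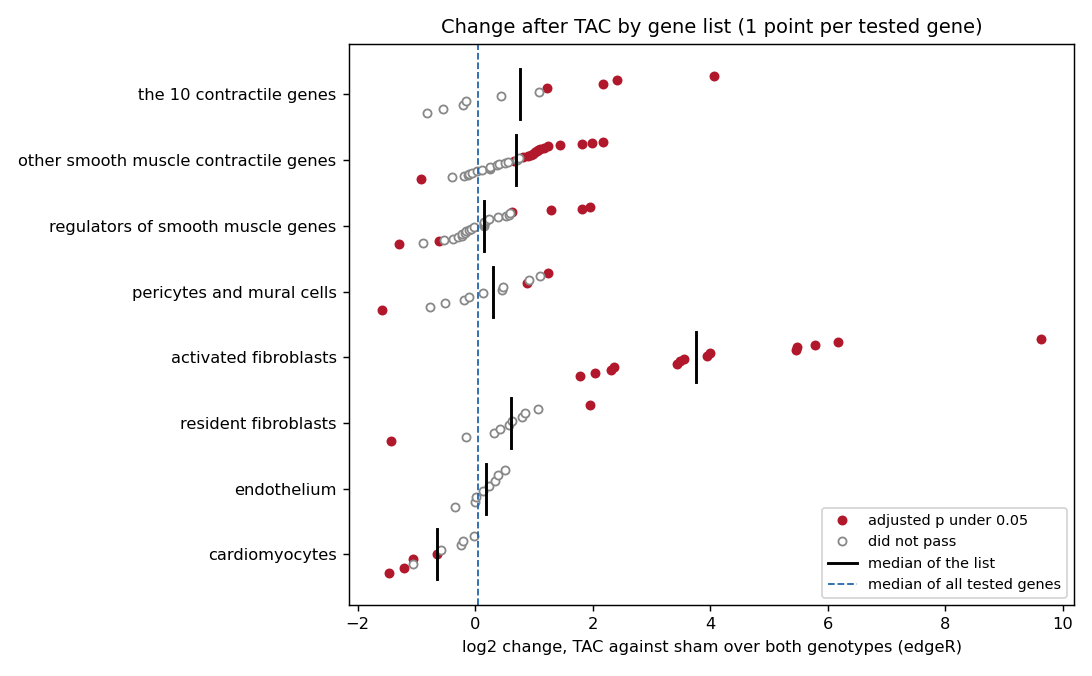
Log2 change after TAC against sham over both genotypes (horizontal axis, edgeR) of each tested gene in 8 gene lists (rows), filled where the adjusted p was under 0.05, with the median of the list as a black bar and that of all tested genes as a dashed line. The activated fibroblast genes all lie right of 1, while the 10 contractile genes run from -0.83 to 4.07.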

How the data were processed

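The authors deposited whole-number counts of reads for each Ensembl gene, and 0 sample columns were left out. STAR 2.5.1, featureCounts and DESeq2 are named for the build GRCm38 per the submitters' processing notes. How strand and multiply aligned reads were handled is not given in the sources used here. Of 46517 identifiers 46005 had a symbol in GENCODE M21.

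The counts were fitted with edgeR 4.0.16 in R 4.3.3 (filterByExpr, TMM, glmQLFit and glmQLFTest, 1 mean per group, all 11 libraries, 7 residual degrees of freedom). Tests were 2-sided, adjusted by Benjamini-Hochberg over 14619 genes, with a threshold of 0.05. The 6 contrasts were TAC against sham in KO, in WT and over both, KO against WT after each surgery, and the interaction. TAC against sham over both came from a separate fit with terms for genotype and surgery and no interaction term. Its residual degrees of freedom are not those given above. A change with TAC that differs between the genotypes, as fitted for Myl9, adds to the residual spread of that fit. The other contrasts came from the fit with 1 mean per group. Standard errors were derived from the F statistic and are approximate. The steps were tested on simulated data. Alternatives used DESeq2 1.42.0 and limma-voom (limma 3.58.1), other scaling, no filter, covariates and left-out libraries.

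The contractile genes, lists and the pair of libraries left out were chosen with earlier results of these data known. All 10 are named, and of each other list up to 4 called genes with the smallest p over both genotypes and at least 1 CPM on average (2 where none was called). Myh11, Srf, Klf5, Ppp1r12b, Des and Tpm1, and Myh1, Myh2 and Myh4, were named after their values were seen.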

Additional observations from a re-analysis of the deposited data

Results flagged for a closer look

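Myl9 was picked out because every KO library deviated from the WT mean in one direction after TAC and in the opposite direction after sham. KO TAC libraries measured 18.2, 52.3 and 58.9 CPM against a WT TAC mean of 178 CPM, and KO sham libraries 19.7, 14.7 and 16.5 CPM against a WT sham mean of 11.6 CPM. Single libraries of KO and WT overlapped after both surgeries. WT TAC 3 at 37.6 CPM lay below KO TAC 2 and 3, and KO sham 2 lay below WT sham 1 at 15.3 CPM. The interaction was -2.59 on the log2 scale, and it did not pass (edgeR adjusted p = 0.992). Groups of 2 or 3 libraries are too small for a test of single outlying libraries.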

How the results depend on the processing

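Over 22 other settings (21 over both genotypes and for the interaction) 0 changes of the 10 genes reversed a call. No paired analysis was possible because the labels share no replicate numbers between groups. In KO, where 1 of the 10 was called, the number called was 3 with library totals and with DESeq2, 2 with DESeq2 size factors, with the ribosomal share and with the compared groups only, 4 without a filter on low counts, 0 with limma-voom, the mitochondrial share or M titles only, and 5 without both KO TAC 1 and WT TAC 3. In WT, where 3 were called, it was 1 with limma-voom, 0 with the mitochondrial share or M titles only and 6 without both libraries. Over both genotypes, where 4 were called, it was 2 with the ribosomal share, 0 with the mitochondrial share and 2 with M titles only, and Myl9 was lost without WT sham 1 (2.10, edgeR adjusted p = 0.0808) or WT sham 2 (1.94, adjusted p = 0.0595), leaving 3. These numbers moved with those of all tested genes, of which 4.70% were called in KO and 6.92% in WT, against 14.7% and 30.5% without both libraries, 9.47% and 8.05% with library totals, 3.39% and 4.99% with limma-voom, 1.92% and 0.52% with the mitochondrial share, and 0.719% and 1.44% with M titles only. DESeq2 called 1490 genes in KO and 2197 in WT, where edgeR called 687 and 1011. Without a filter on low counts 1 gene, Myl9, was called between KO and WT after TAC and 1 in the interaction, where 0.85% and 0.33% of all genes were called, and without both libraries 1 after TAC. With 1 library left out the number called ran from 0 to 2 in KO (0 without any 1 KO sham library) and from 0 to 6 in WT (0 without either WT sham library, 1 without WT TAC 1 or 2, 6 without WT TAC 3), and over both from 3 to 5. The share of all tested genes called moved as well. In WT it was 0.193% and 0.565% without WT sham 1 and 2, 2.75% and 2.51% without WT TAC 1 and 2, and 18.4% without WT TAC 3. In KO it was 1.55% to 2.15% without a KO sham library, and over both it ran from 10.7% to 26.7%. The causes were not tested. Depth limits Actg2 and Lmod1, with 0 to 25 counts of Actg2 per library.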
